A study of Mus musculus with 5 samples.

Results

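Pdx1, Sox9, Onecut2, Gata6, Foxa1, Foxa2, Sox4 and Sox11 are 8 transcription factors of the pancreatic and foregut lineage, and they were followed here by name in single-cell RNA libraries of mouse pancreatic tumours. The 8 genes were found in both deposited tables, among 12579 genes that the tables shared. Their levels are given for each library and for cell classes defined by marker genes that included none of the 8. Tumours came from KPPCN mice (2 libraries, numbered 1 and 2) and from KPPC mice (3 libraries, coded C3, D3 and H2), all aged 7 to 8 weeks with advanced disease. Values of the KPPC libraries follow that order wherever 3 are given. As background to these strain names, KPPC mice lack both copies of Trp53 in cells that have expressed a Cre recombinase driven by a Pdx1 promoter, and KPPCN mice lack Nsdhl, an enzyme of cholesterol synthesis, in the same cells. Both genotypes therefore share the Trp53 alleles and the Cre. The labels do not spell these alleles out. The labels name 3 mice of each genotype, and a further KPPCN tumour was not analysed here. CD45-positive and dead cells had been depleted before loading.

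Pancreatic cells arise from a foregut epithelium in which PDX1, SOX9, GATA6, FOXA1 and FOXA2 act together in progenitors. PDX1 is later kept in beta cells, SOX9 in ducts, and the FOXA proteins, which open chromatin, across the gut epithelium. ONECUT factors are cut-homeodomain proteins of liver and pancreas, and SOX4 and SOX11 are related SOXC proteins active in progenitor and migrating cells. In pancreatic cancer GATA6 is known as a marker of the classical, gland-forming subtype, and its loss as a feature of the basal-like one.

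Coordinates are those of GRCm38. Pdx1 (ENSMUSG00000029644) is at chr5:147269959-147275848 on the plus strand and Sox9 (ENSMUSG00000000567) at chr11:112782224-112787760 on the plus strand. Foxa1 (ENSMUSG00000035451) is at chr12:57540628-57546916, Foxa2 (ENSMUSG00000037025) at chr2:148042877-148046969, Sox4 (ENSMUSG00000076431) at chr13:28948919-28953713 and Sox11 (ENSMUSG00000063632) at chr12:27334264-27342574, all on the minus strand.

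Promoter sequences from RefSeq (GRCm38.p6) were matched for 5 of the 8 members. The stretches of Foxa2, Foxa1 and Pdx1 are shown because their levels are compared in detail below, and because they could be searched for motifs of the members' own families. Each is written in the direction of transcription, 5′ to 3′, and ends at the RefSeq start or, for Foxa1 and Pdx1, before the first exon annotated within the window. Capitals mark motif matches.
Foxa2, chr2:148046970-148047219, minus strand: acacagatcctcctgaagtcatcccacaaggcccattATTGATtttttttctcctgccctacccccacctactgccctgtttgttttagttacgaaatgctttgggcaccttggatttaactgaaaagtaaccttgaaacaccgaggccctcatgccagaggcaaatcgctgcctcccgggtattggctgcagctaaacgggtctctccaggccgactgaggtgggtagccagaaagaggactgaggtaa
Foxa1, chr12:57546122-57546361, minus strand: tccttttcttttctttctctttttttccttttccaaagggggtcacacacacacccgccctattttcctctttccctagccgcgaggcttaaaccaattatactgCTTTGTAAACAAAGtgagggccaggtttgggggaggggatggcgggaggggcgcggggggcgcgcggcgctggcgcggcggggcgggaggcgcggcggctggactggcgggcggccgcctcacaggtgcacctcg
Pdx1, chr5:147269847-147269958, plus strand: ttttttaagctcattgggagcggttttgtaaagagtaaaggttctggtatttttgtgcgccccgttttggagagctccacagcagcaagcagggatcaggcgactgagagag
The Foxa1 stretch lies inside the longer annotated gene but outside its exons. Its capitals are 3 overlapping matches, a forkhead motif TGTTTAC on the reverse strand at 141 bases before the start, and the SOX motif ACAAAG at 145 bases on the reverse strand and at 137 bases as written. A further reverse-strand ACAAAG at 8 bases before the start lies outside the stretch shown. The capitals of Foxa2 are the ONECUT motif ATTGAT at 213 bases before the start. The search covered 250 bases before each RefSeq start on both strands and 8 motifs, which besides these 3 were a further forkhead motif, TATTTAC, a further SOX motif, ACAATG, the motif of GATA factors, AGATAA, and a pair of homeodomain motifs, of which one is TAATTA and the other is CTAATG. Of 32851 RefSeq promoters, 3.17% held the forkhead motif TGTTTAC, 16.5% held the SOX motif ACAAAG and 6.72% held the ONECUT motif ATTGAT, and the other motifs were held by 2.73 to 10.7%. The table holds 3 promoters of Foxa2, and one not shown held ACAAAG on the reverse strand at 171 bases and AGATAA as written at 183 bases before its start. The Pdx1 stretch held none of the 8 motifs, and neither did the promoters of Sox4 and Sox11. A match describes letters in this window and is not evidence of binding.

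The libraries differed in depth. KPPCN 1 held 5147 cells with a median of 2175 UMIs (unique molecular identifiers, which count transcript molecules by their 3′ ends), and KPPCN 2 held 1985 cells with a median of 21593 UMIs. KPPC C3, D3 and H2 held 2464 to 3663 cells with medians of 17204 to 19019.5 UMIs. Lymphocytes were frequent in KPPCN 1, with T/NK-like cells at 25.3% and B/plasma-like cells at 20.7%, against at most 1.15% and 0.365% in any other library. Of all barcode sequences, 27 occurred in more than 1 library. Nsdhl, the gene targeted in KPPCN, stood at 14.1 and 11.7 counts per 1e+06 UMIs (CPM) over all cells of KPPCN 1 and 2, against 15.2, 18.3 and 16.8 CPM in KPPC. The epithelial-like level of Nsdhl was 40.4 and 34.2 CPM in KPPCN, compared with 31.8, 23.8 and 29.2 CPM in KPPC. A 3′ tag outside the deleted part would not check the deletion, and the deleted part is not given in the sources used here.

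Of all cells, 21.5 and 41.8% in KPPCN 1 and 2 lay in unnamed clusters, against 20.8, 35.4 and 17.8% in KPPC. The named tumour cells fell into 2 classes. Epithelial-like cells numbered 58 and 29 in KPPCN 1 and 2, against 507, 819 and 576 in KPPC. Their Epcam level was 659 and 1637 CPM in KPPCN, compared with 1460, 1859 and 1369 CPM in KPPC. Cdkn2a-high cells, named from a marker list with Cdkn2a, Cdkn2b, Hmga2, Ankrd1, Krt8 and Krt18, numbered 225 and 775 in KPPCN, against 214, 104 and 56 in KPPC. In them Epcam stood at 7.95 and 1.70 CPM in KPPCN, compared with 17.8, 62.2 and 144 CPM in KPPC, and Vim at 4118 and 4007 CPM in KPPCN, compared with 3362, 5619 and 4806 CPM in KPPC. Their Cdkn2a level was 1135 and 1068 CPM in KPPCN, compared with 1035, 1158 and 1118 CPM in KPPC. Krt18, of the same naming list, was uneven, at 3381 and 475.5 CPM in KPPCN, compared with 2310, 3149 and 2574 CPM in KPPC, so that the library with the most cells of the class, KPPCN 2, was the lowest. The Cdkn2a-high class came from different clusters. In KPPCN 2 it was the Flt1-led cluster 9 (773 cells), and in KPPCN 1, C3, D3 and H2 it was cluster 11, led by Gchfr, Bmp7 and Lmo1 (224 cells in KPPCN 1 and 213, 103 and 55 cells in KPPC). The epithelial-like class joined cluster 2, led by Tff2, and cluster 8, in which Pyy was among the leading genes. The Tff2-led cluster held 52 and 15 cells in KPPCN 1 and 2 and 349, 407 and 335 cells in KPPC. The Pyy-led cluster held 6 and 14 cells in KPPCN and 158, 412 and 241 cells in KPPC. Classes and clusters were built on other genes of the same cells, so levels between classes are given as descriptions without a test.

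Pdx1 and Foxa2 marked the epithelial-like and Cdkn2a-high cells and were close to 0 in the stroma. Pdx1 stood at 22.3 and 13.0 CPM in the epithelial-like cells of KPPCN 1 and 2, which rest on 16 and 8 UMIs, against 15.9, 17.8 and 17.7 CPM in KPPC. The 2 KPPCN values lie on either side of the KPPC values. In the Cdkn2a-high cells Pdx1 stood at 11.5 and 5.44 CPM in KPPCN, compared with 12.5, 17.9 and 14.3 CPM in KPPC. Here both KPPCN libraries were below all 3 KPPC libraries. Acinar-like cells, which reached 20 cells in 2 KPPC libraries alone, held 17.9 and 14.1 CPM in C3 and H2. In fibroblast-like cells Pdx1 stood at 0.485 and 0.398 CPM in KPPCN, compared with 0.249, 0.188 and 0.158 CPM in KPPC, from 1 to 7 UMIs in each library.

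Foxa2, a pioneer factor of foregut endoderm, followed the same order. Its level was 55.7 and 32.5 CPM in the epithelial-like cells of KPPCN 1 and 2, against 38.7, 37.0 and 41.1 CPM in KPPC. In the Cdkn2a-high cells it stood at 22.8 and 19.3 CPM in KPPCN, compared with 18.7, 38.1 and 19.3 CPM in KPPC. Its fibroblast-like level was 0.710 to 1.31 CPM over the 5 libraries. Acinar-like cells held 35.8 and 52.1 CPM in C3 and H2, within the range of the epithelial-like cells.

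Foxa1, the paralogue of Foxa2, was rarely seen. It stood at 1.39 and 1.63 CPM in the epithelial-like cells of KPPCN 1 and 2, from 1 UMI each, against 16.6 and 6.97 CPM in KPPC D3 and H2. The whole of library C3 is listed at 0 for Foxa1. In C3 each gene that was not listed at 0 throughout the library was seen in at least 61 barcodes, whereas the KPPCN table went down to genes seen in 1 barcode. A listing at 0 in C3 is therefore not read as a level, and C3 is left out of the Foxa1 levels. With exact Poisson 95% intervals, which cover counting error only, the KPPCN levels ranged up to 7.76 and 9.07 CPM, against 15.0 to 18.3 CPM in D3 and 5.69 to 8.44 CPM in H2. In Cdkn2a-high cells Foxa1 stood at 3.98 and 0.956 CPM in KPPCN, compared with 4.17 and 5.01 CPM in D3 and H2.

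Onecut2 (ENSMUSG00000045991, on chromosome 18), a cut-homeodomain factor, was high in epithelial-like cells of every library and uneven in Cdkn2a-high cells. Epithelial-like cells held 713 and 893 CPM in KPPCN 1 and 2, against 780, 865 and 717 CPM in KPPC, so that the groups overlapped. In Cdkn2a-high cells it stood at 169 and 15.6 CPM in KPPCN, compared with 36.6, 155 and 402 CPM in KPPC. The level in these cells spanned a wide range within each genotype, and the 3 KPPC values came from the same cluster. After thinning to 1000 UMIs a cell, 51.7 and 44.8% of epithelial-like cells of KPPCN had an Onecut2 UMI, against 50.8, 50.2 and 48.8% in KPPC. Fibroblast-like cells thinned alike, a class that should lack the gene, had a UMI in 0.450 and 0.00% in KPPCN, against 1.46, 1.73 and 0.559% in KPPC. Thinning left out 16 to 478 cells a library with fewer UMIs, and the median depth of the epithelial-like cells was 7430 UMIs in KPPCN 1, against at least 14110 UMIs in the other 4 libraries.

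Gata6 (ENSMUSG00000005836, also on chromosome 18) was the member that did not follow the tumour classes. It was highest in mesothelial-like cells, with 161 and 226 CPM in KPPCN 1 and 2, against 251, 232 and 216 CPM in KPPC. Fibroblast-like cells held 57.4 and 81.0 CPM in KPPCN, compared with 117, 64.3 and 54.0 CPM in KPPC. Epithelial-like cells held 48.8 and 45.6 CPM in KPPCN, compared with 59.8, 52.4 and 50.7 CPM in KPPC. Within each of the 5 libraries the epithelial-like level lay below the fibroblast-like one, by −0.91 to −0.08 on the log2(CPM + 5) scale. Cdkn2a-high cells held 17.2 and 27.5 CPM in KPPCN, compared with 12.2, 35.1 and 10.7 CPM in KPPC.

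Sox9, the ductal factor, was highest in Cdkn2a-high cells, with 206 and 391.5 CPM in KPPCN 1 and 2, against 347, 369 and 266 CPM in KPPC. The epithelial-like level was 59.9 and 260 CPM in KPPCN, compared with 190, 194 and 150 CPM in KPPC. KPPCN 1 was the lowest library and KPPCN 2 the highest in both classes. The same order of the 2 KPPCN libraries held in fibroblast-like cells, with 16.1 and 79.0 CPM in KPPCN, compared with 55.4, 48.6 and 25.6 CPM in KPPC.

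Sox4 was the broadest member. Epithelial-like cells held 290 and 859 CPM in KPPCN 1 and 2, against 408, 664 and 466 CPM in KPPC. Cdkn2a-high cells held 495 and 696 CPM in KPPCN, compared with 447, 514 and 540 CPM in KPPC. Endothelial-like cells stood nearly as high, with 521 CPM in KPPCN 2, compared with 385, 493 and 489 CPM in KPPC, and fibroblast-like cells held 142 to 271 CPM over the 5 libraries. The ranges of these first 3 classes overlapped.

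Sox11, its SOXC relative, was narrower. Epithelial-like cells held 33.4 and 397 CPM in KPPCN 1 and 2, against 233, 394 and 257 CPM in KPPC. The 2 KPPCN libraries were the lowest and the highest of the 5. In Cdkn2a-high cells Sox11 stood at 37.7 and 169 CPM in KPPCN, compared with 21.4, 67.9 and 80.8 CPM in KPPC. Fibroblast-like cells held 4.004 to 14.5 CPM.

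**Figure D1:**
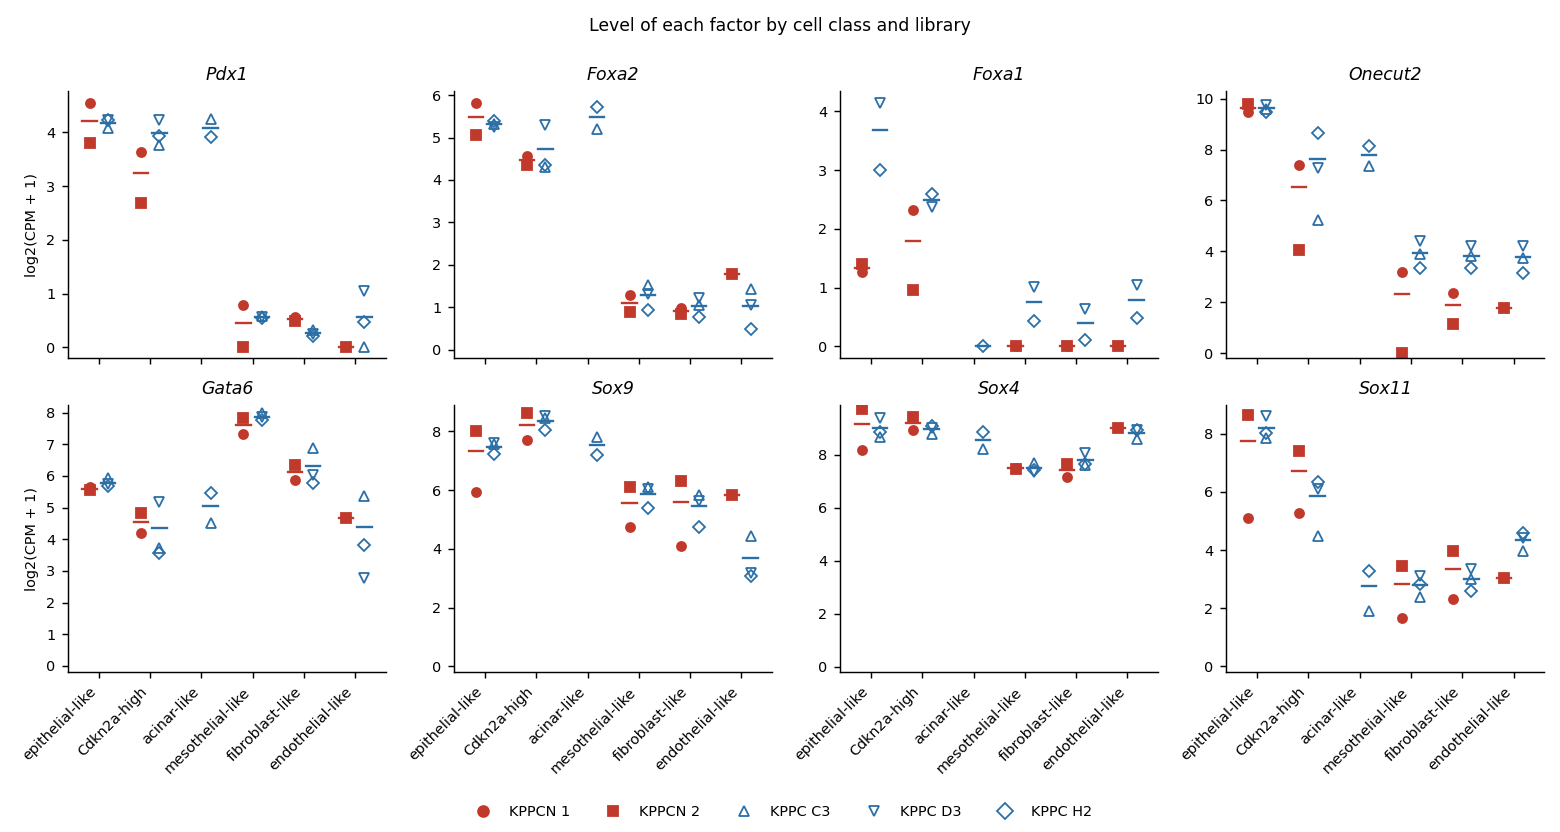
Level of each factor (log2 of CPM plus 1) by cell class, with 1 point for each library of at least 20 cells, KPPCN filled on the left and KPPC open on the right, and a bar at each group's mean CPM; Foxa1 in C3 is left out. Gata6 peaks in mesothelial-like cells (161 to 251 CPM), whereas Pdx1, Foxa2 and Onecut2 are high in epithelial-like cells and near 0 to 17.4 CPM in fibroblast-like cells.

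The clusters of epithelial-like cells, built without these factors, differed in their levels. In KPPC, Pdx1 stood at 19.7, 24.8 and 23.7 CPM in the Tff2-led cluster, while its level was 7.19, 11.5 and 9.38 CPM in the Pyy-led cluster of the same libraries. Gata6 stood at 74.9, 74.0 and 66.2 CPM in the Tff2-led cluster and at 25.3, 32.7 and 29.4 CPM in the Pyy-led one. Foxa2 stood at 45.9, 47.5 and 46.7 CPM in the Tff2-led cluster and at 22.3, 27.6 and 33.6 CPM in the Pyy-led one. For all 3 genes the ranges of the clusters were apart. Onecut2 was also higher in the Tff2-led cluster in 3 of 3 libraries, by 0.27 to 0.47 on the log2(CPM + 5) scale.

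The SOX factors ran the other way. Sox11 stood at 60.2, 107 and 59.5 CPM in the Tff2-led cluster, while its level was 629, 653 and 529 CPM in the Pyy-led cluster. The log2 difference was −3.28 to −2.56, the widest of the members. Sox4 stood at 276, 497 and 322 CPM in the Tff2-led cluster and at 713, 815 and 663 CPM in the Pyy-led one. Sox9 was lower in the Tff2-led cluster in 3 of 3 libraries, by −0.60 to −0.38 on the log2 scale. In KPPCN the clusters were too small to sum except for the 52 Tff2-led cells of KPPCN 1, where Sox11 stood at 29.2 CPM, Pdx1 at 24.0 CPM and Onecut2 at 824 CPM. The 14 Pyy-led cells of KPPCN 2 held 169 Sox11 UMIs (571 CPM), and its 15 Tff2-led cells held 75 (235 CPM).

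Between the tumour classes, 3 members kept 1 direction within each of the 5 libraries. Sox9 was higher in Cdkn2a-high than in epithelial-like cells, by 0.58 to 1.70 on the log2(CPM + 5) scale. Onecut2 was lower in Cdkn2a-high cells, by −5.45 to −0.83, and Gata6 by −1.91 to −0.52. Pdx1 and Foxa2 were each higher in Cdkn2a-high cells in 1 of 5 libraries, Sox4 in 3 of 5, Sox11 in 1 of 5 and Foxa1 in 1 of 4. For Pdx1 and Foxa2 that library was D3, where the classes nearly tied, at 0.003 and 0.036 on the log2(CPM + 5) scale.

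**Figure D2:**
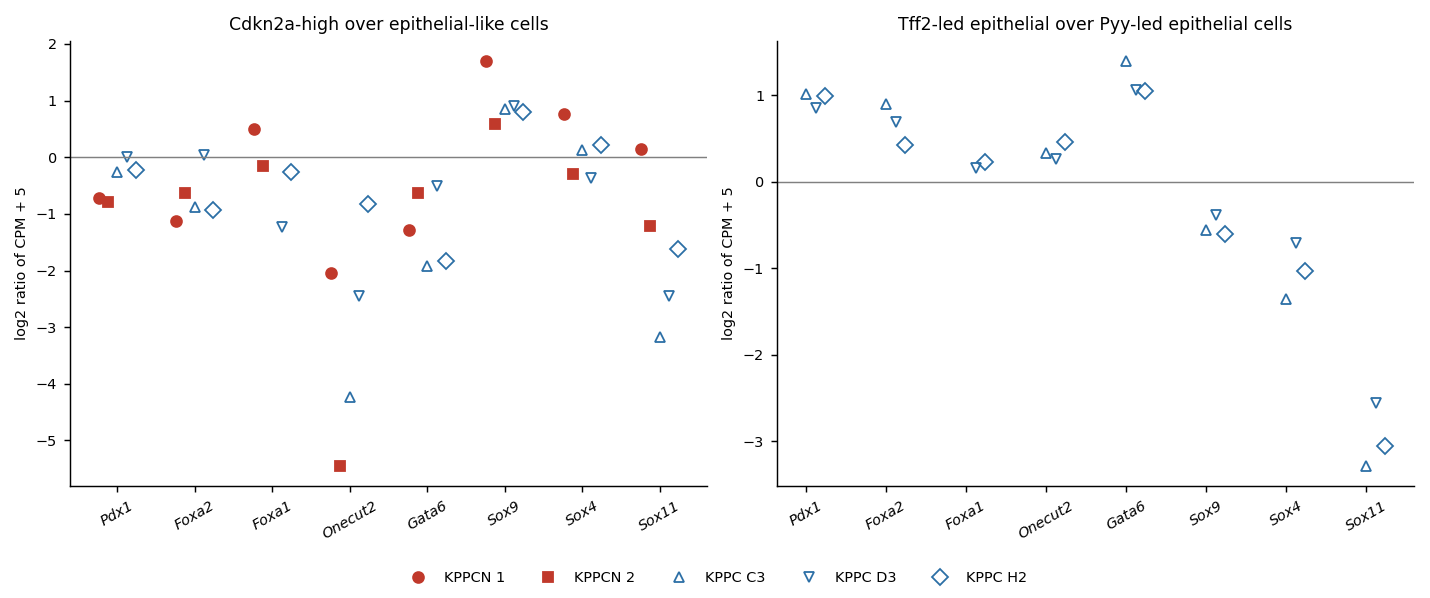
Log2 ratio of CPM plus 5 between cell populations of the same library, with 1 point a library: Cdkn2a-high over epithelial-like cells on the left and Tff2-led over Pyy-led epithelial cells on the right (KPPC alone, where both clusters held at least 20 cells). Sox9 lies above 0 and Onecut2 and Gata6 below 0 in the 5 libraries on the left, and Sox11 lies at −3.28 to −2.56 on the right.

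An unnamed cluster led by Gpr137b and Ddit3, a stress-response factor, held members as well. Its Onecut2 level was 203 CPM in KPPCN 1, compared with 212, 521 and 427 CPM in KPPC, lower than in the epithelial-like cells of the same library in 4 of 4. Sox11 stood there at 54.0 CPM in KPPCN 1 (30 UMIs), compared with 51.9, 82.1 and 101.6 CPM in KPPC. Against the epithelial-like cells of the same library this was higher in KPPCN 1, by 0.62 on the log2(CPM + 5) scale, and lower in the 3 KPPC libraries, by −2.19 to −1.30. In KPPCN 2 a cycling cluster led by Top2a (341 of its 342 cells came from that library) held Pdx1 at 15.8 CPM, Sox9 at 249 CPM, Sox11 at 148 CPM and Onecut2 at 8.69 CPM. The Cdkn2a-high cluster 9 of the same library held Pdx1 at 5.46 CPM and Onecut2 at 15.3 CPM. Low-depth unnamed cells that scored highest for the Cdkn2a-high markers reached 20 cells in 1 library of each genotype. They held Sox9 at 63.0 CPM in KPPCN and 73.7 CPM in KPPC, and Sox4 at 162 and 147 CPM.

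Across 37 sums of 1 library and 1 class with at least 20 cells, Pdx1 was most like Foxa2 among 11413 genes that were not listed at 0 in any KPPC library, with Pearson's r = 0.968 on log2(CPM + 5). Onecut2 followed both, with r = 0.878 to Pdx1 and 0.839 to Foxa2. Gata6 was unlike the other epithelial members, with r = 0.0928 to Pdx1, 0.108 to Foxa2 and 0.0818 to Onecut2. Its closest gene was Efna5, an ephrin (r = 0.929). Misp (0.930) and Igsf5 (0.920) were closest to Onecut2, Rgs17 (0.871) to Sox9, Arhgap5 (0.945) to Sox4 and Ret, a receptor tyrosine kinase, to Sox11 (0.868). Over the 27 sums without C3, Foxa1 was closest to Krt16, a keratin (0.970). In the sums of the other named classes Foxa1 reached at most 1.07 CPM, so that value rests mainly on the epithelial-like and Cdkn2a-high sums. The unnamed Gpr137b-led cluster, which is not among the sums, held Foxa1 at 1.80 CPM in KPPCN 1, compared with 10.6 and 9.63 CPM in D3 and H2. The sums share libraries and depth and are not independent, so these values describe the pattern across classes and carry no test.

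**Figure D3:**
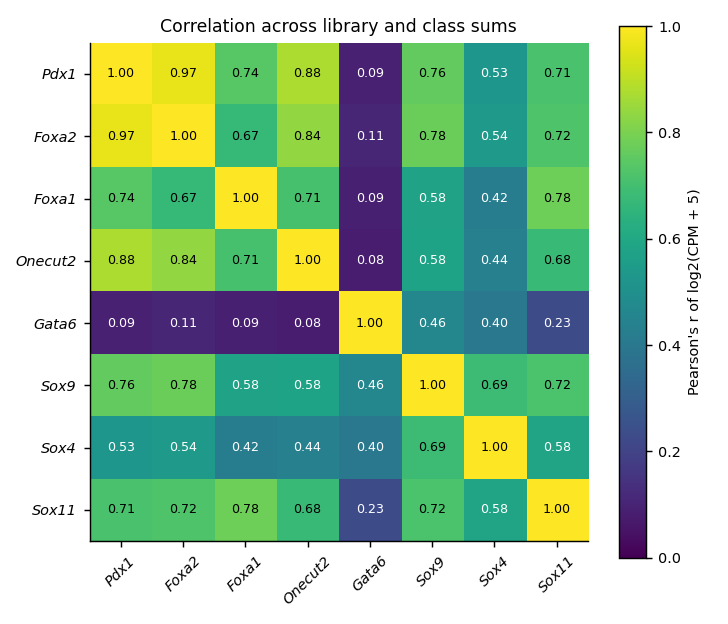
Pearson's r between members across 37 sums of library and cell class (27 for pairs with Foxa1), on log2(CPM + 5). Pdx1 and Foxa2 reach 0.97, and Gata6 stays at 0.08 to 0.46 with every other member.

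Co-detection was read within single cells. In the epithelial-like cells of KPPC thinned to 5000 UMIs (465, 781 and 560 cells in C3, D3 and H2; KPPCN had 37 and 25 such cells and was not used), cells with both Pdx1 and Foxa2 numbered 1, 7 and 3. Independent detection would give 4.08, 7.72 and 6.90. Pdx1 and Sox11 occurred together in 6, 18 and 12 cells, against 9.67, 26.9 and 18.9 under independence, a ratio of 0.62 to 0.67. Within the Tff2-led cluster alone that ratio was 0.82 to 1.14. Pdx1 and Foxa1 occurred together in 6 and 4 cells of D3 and H2, 2.25 and 2.32 times the 2.66 and 1.73 cells under independence. For this pair the ratio was 1.67 and 1.61 within the Tff2-led cluster (4 and 2 cells). It was 3.67 and 4.82 within the Pyy-led cluster (2 cells in each library). Pdx1 was seen in 5.59 to 8.21% of the epithelial-like cells at this depth, and the ratios rest on few cells. Sox4 with Sox11 gave ratios of 1.08 to 1.16, and Sox9 with Onecut2 0.99 to 1.00. Sox4 was seen in 73.8 to 82.2% and Onecut2 in 87.1 to 89.5% of these cells. Such shares leave these ratios little room above 1, so they cannot be set beside those of rarer genes.

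The genotypes were compared on UMIs summed per library and class with limma on log2(CPM + 5), fitted over all genes with enough counts and adjusted over all of them by the Benjamini-Hochberg method. The series is titled for cholesterol pathway inhibition and basal differentiation, and the comparison asks whether the lineage factors differ with the genotype. In the epithelial-like cells none of the 8 members passed an adjusted p of 0.05, and of 12114 genes tested 0% did (0 genes; 1034 had an unadjusted p under 0.05). Without genes listed at 0 in a whole KPPC library, the median difference was −0.07 over the remaining 7 members, against −0.03 over all genes. Sox11 stood apart between the KPPCN libraries, with 33.4 and 397 CPM in KPPCN, compared with 233, 394 and 257 CPM in KPPC, a log2 difference of −1.32 with an SE of 0.79 (limma, adjusted p = 0.659). Sox9 differed by −0.55 with an SE of 0.46 (adjusted p = 0.747). Without KPPCN 1 both directions turned, to 0.36 for Sox11 and 0.45 for Sox9. Onecut2, with 803 ± 127 CPM in KPPCN (SD, n = 2) and 787 ± 74.2 CPM in KPPC (SD, n = 3), differed by −0.04 with a 95% interval of −0.42 to 0.35. Pdx1 differed by −0.03 (−0.59 to 0.53) and Foxa2 by 0.08 (−0.47 to 0.64), and leaving out 1 library turned these directions and that of Onecut2 too. Foxa1 differed by −0.81 with C3 entered at its listed 0, and by −1.35 without C3 (adjusted p = 0.602).

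Of the 7 members not listed at 0 in a KPPC library, Gata6 alone had epithelial-like values that did not overlap between genotypes. It stood at 47.2 ± 2.27 CPM in KPPCN (SD, n = 2) and 54.3 ± 4.86 CPM in KPPC (SD, n = 3). It differed by −0.23 (SE 0.19; limma, adjusted p = 0.742). Of all genes tested, 17.9% had each KPPCN value under each KPPC value and 15.3% the reverse, so 1 of 8 members is within that background. The KPPCN sums rest on 58 and 29 cells, and the share of Tff2-led cells among them, 52 of 58 and 15 of 29, differed between the 2 libraries. The part of this mixture in the Sox11 and Sox4 values was not tested.

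In the Cdkn2a-high cells 0 of 8 members passed, and 0% of 11260 genes did (836 had an unadjusted p under 0.05). Without genes listed at 0 in a whole KPPC library, the median difference was −0.17 over the remaining 7 members, against 0.01 over all genes. Pdx1 averaged 8.48 ± 4.29 CPM in KPPCN (SD, n = 2) and 14.9 ± 2.71 CPM in KPPC (SD, n = 3), a log2 difference of −0.61 with an SE of 0.27 (limma, adjusted p = 0.668). It was the only member without overlap among the remaining 7, and 10.4% of genes lay lower in both KPPCN libraries and 12.4% higher. Foxa1, which is not among the 7, stood at 3.98 and 0.956 CPM in KPPCN, compared with 4.17 and 5.01 CPM in D3 and H2. With C3 left out, its values did not overlap either. Onecut2 differed by −1.17 with an SE of 1.10 (adjusted p = 0.811), and the difference was 0.44 without KPPCN 2. Sox11 differed by 0.74 with an SE of 0.68 (adjusted p = 0.806) and by −0.22 without KPPCN 2. As the KPPCN 2 cells formed a cluster of their own, that library and the class it forms cannot be told apart.

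Fibroblast-like cells had enough counts to test 5 members, and none passed, with 0% of 11881 genes called (926 had an unadjusted p under 0.05). Onecut2 stood at 4.12 and 1.19 CPM in KPPCN, compared with 13.0, 17.4 and 9.15 CPM in KPPC. It differed by −1.22 (SE 0.23; limma, adjusted p = 0.374), and the groups did not overlap, as for 13.3% of genes in the same direction. The fibroblast-like level of Onecut2 was 3.61 to 8.16% of its level over all cells of the same library. For the epithelial genes Epcam, Krt7 and Tff2 that share was 1.76 to 11.8%. Epithelial-like cells supplied 2.79 and 1.19% of the UMIs of KPPCN 1 and 2, against 17.3, 32.6 and 29.9% in KPPC, and the part of free epithelial RNA in this difference was not tested. Gata6, which fibroblast-like cells hold at a level of their own, differed by −0.14 with an SE of 0.34 (adjusted p = 0.917).

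Over all cells, Onecut2 stood at 60.9 and 22.2 CPM in KPPCN, compared with 159, 308 and 253 CPM in KPPC, and Gata6 at 52.6 and 37.5 CPM in KPPCN, compared with 98.4, 129 and 89.9 CPM in KPPC. Onecut2 differed by −2.48 on the log2 scale (SE 0.47; limma, adjusted p = 0.117) and Gata6 by −1.14 (SE 0.24; adjusted p = 0.134). Neither passed, and 1 of 12558 genes did (0.00796%). In both cases the groups did not overlap, against 17.7% of genes lower and 18.5% higher in both KPPCN libraries. In sums over all cells, fewer cells of a type and less RNA per cell cannot be told apart. Beside the all-cell difference, Onecut2 differed by −0.04 within the epithelial-like cells. Mesothelial-like cells, the class with the most Gata6, numbered 68 of 5147 and 39 of 1985 cells in KPPCN, against 307 of 3663, 521 of 3196 and 327 of 2464 in KPPC. Without KPPCN 1 the all-cell difference of Onecut2 was −3.14 (adjusted p = 0.019), that of Gata6 −1.39 (0.024) and that of Sox4 0.65 (0.049), with the lone KPPCN 2 library assumed to vary like the others. That fit called 26% of all genes, so these 3 calls of 8 members are read against that share. With every cell thinned to 2000 UMIs, Onecut2 differed by −2.28 (limma, adjusted p = 0.049), 1 member called where 0.564% of all genes were. In the fit with both KPPCN libraries, the other members differed by −0.92 (Sox11) to 0.10 (Sox9), and leaving out 1 library turned both of these directions.

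**Figure D4:**
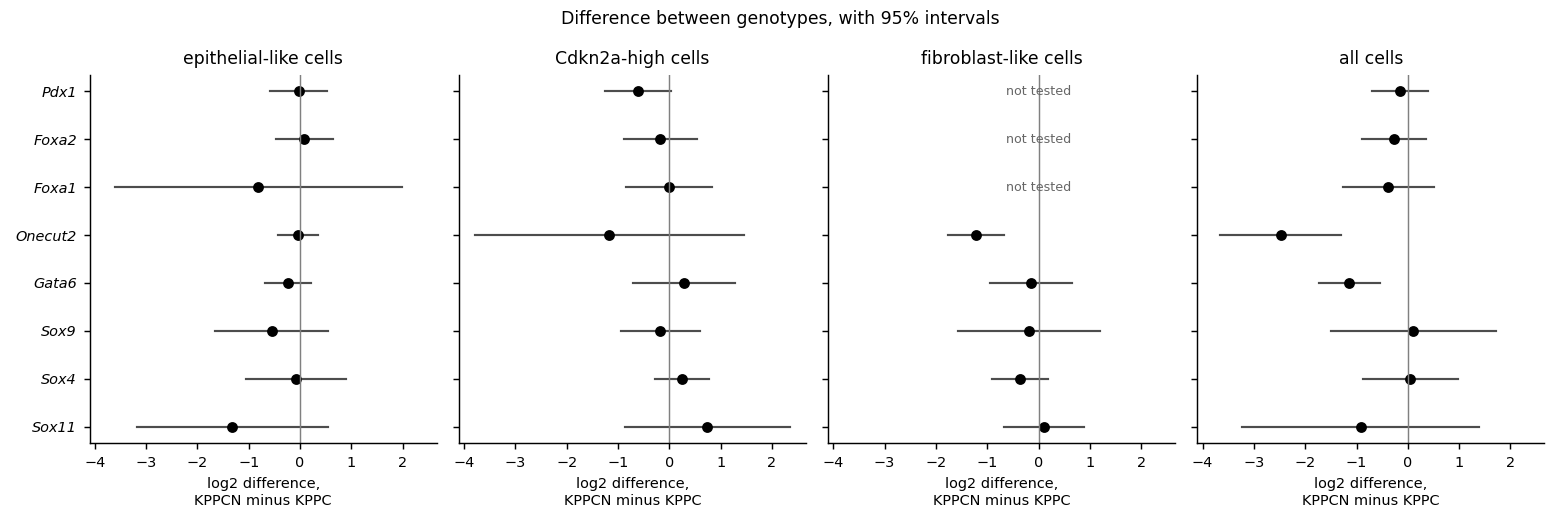
Log2 difference, KPPCN minus KPPC, of each factor in 4 cell populations (points) with its 95% interval from limma (lines). No member passed an adjusted p of 0.05, and the intervals of Onecut2 and Gata6 over all cells lie below 0.

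The classes that supplied each factor's UMIs differed between libraries. Epithelial-like cells held 32.7 and 47.6% of the Onecut2 UMIs of KPPCN 1 and 2, against 84.6, 91.5 and 84.5% in KPPC. For Sox11 they held 8.14 and 3.60% in KPPCN, against 80.2, 92.8 and 89.0% in KPPC. Cdkn2a-high cells held 61.0 and 60.1% of the Sox11 UMIs in KPPCN, against 6.86, 2.24 and 2.62% in KPPC. For Pdx1 the Cdkn2a-high share was 69.6 and 32.5% in KPPCN, against 37.1, 11.8 and 5.97% in KPPC, and for Sox9 it was 66.3 and 65.4% in KPPCN, against 39.0, 12.3 and 8.54% in KPPC. These shares follow the numbers of cells of each class as well as the level in each cell. In KPPCN 2 the cycling cluster led by Top2a is counted outside both classes, and its Pdx1 level was 15.8 CPM. Most Pdx1 UMIs of that library lay outside both classes, with 131 in Cdkn2a-high and 8 in epithelial-like cells.

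**Figure D5:**
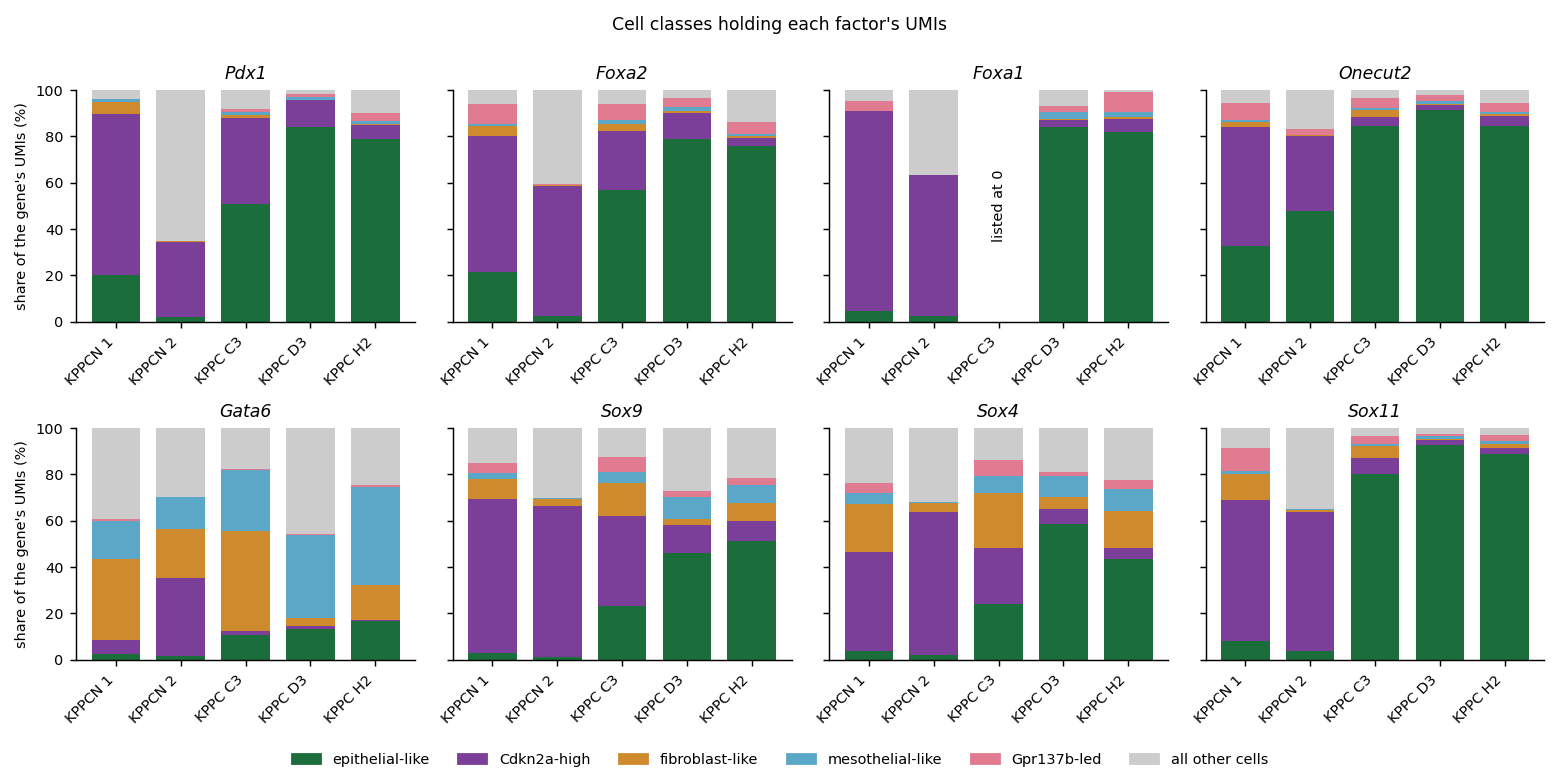
Share of each factor's UMIs (%) held by each cell class in each library, KPPCN on the left of each panel and KPPC on the right; Foxa1 is listed at 0 in C3. Epithelial-like cells hold 84.5 to 91.5% of the Onecut2 UMIs in KPPC, against 32.7 and 47.6% in KPPCN.

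Other genes of the same pathways were read from 7 lists of 71 genes, of which 42 were in both tables. None of these 42 was called in any comparison at an adjusted p of 0.05. Genes listed at 0 throughout a KPPC library were left out of the counts that follow. In the epithelial-like cells 34 remained, of which 1 lay higher (Sox7, a SOX factor, by 0.35, and by −0.25 with clustering at resolution 2) and 9 lower in both KPPCN libraries, against 15.5% higher and 18.9% lower over all genes. Among 6 hepatocyte nuclear and related ductal factors 3 lay lower, with a median of −0.12, against −0.03 over all genes. Hes1, a target of Notch, differed by −0.74 (adjusted p = 0.565) and Prox1, a homeodomain factor, by −0.60. Among 10 factors of the classical epithelial programme 2 lay lower, Ovol1 by −0.68 and Grhl2 by −0.47, with a list median of −0.16. Foxq1, a forkhead factor, differed by −0.80 (adjusted p = 0.565), and Spp1, a secreted phosphoprotein and known SOX9 target, by −1.31 (adjusted p = 0.565).

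In the Cdkn2a-high cells 27 remained, and 0 lay higher and 7 lower, against 12% higher and 11% lower over all genes. Hes1 differed by −1.14, Spp1 by −1.52, Foxq1 by −1.11 and the epithelial ETS factor Elf3 by −1.27 (limma, adjusted p = 0.657 for each). In fibroblast-like cells 24 remained, with 0 higher and 10 lower, among them Hes1 at −1.15, against 13.1% higher and 14.2% lower over all genes. Over all cells 35 remained, with 2 higher and 25 lower, against 18.2% higher and 19.8% lower over all genes. Of the 10 classical epithelial factors 9 lay lower, with a median of −0.89, against 0.01 over all genes, and Elf3 differed by −2.97 and Ehf by −2.31. Onecut3, a relative of Onecut2, differed by −2.06 and Foxq1 by −3.05 (limma, adjusted p = 0.0657 to 0.0878 for these 4 genes). The 2 that lay higher were Tubb3, a neuronal tubulin, at 0.93 (adjusted p = 0.220) and Sox5 at 0.60 (adjusted p = 0.313). The epithelial-like share of UMIs given above was lower in both KPPCN libraries, and its part in the all-cell differences was not tested.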

How the data were processed

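The authors deposited 1 table per genotype, holding the natural log of 1 plus UMIs per 10000, as its values show. After the log was undone, dividing by the lowest value above 0 in each cell gave back UMIs, and 100% of values were whole within 0.01 UMI. Per the submitters' processing notes, reads were handled on GRCm38 with software that included Seurat 3.0.2, Cell Ranger 2.1.0 and R 3.5.1. Filters are not given in the sources used here. KPPCN columns carry the numbers of their samples. The KPPC columns carry 3 codes that show the genotype but not the sample, so n = 3 for KPPC takes each code as 1 library of that group. P-values measure the spread between these 5 libraries.

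Of 17771 barcodes, 801 were left out for having under 500 genes or over 20% mitochondrial UMIs. In each library the cells with the highest doublet scores were then removed, up to a rate of 0.8% per 1000 cells. The number removed, 515 cells, was thus set by library size, and 16455 cells were left. Clusters came from scanpy 1.11.5 (2000 variable genes, 30 principal components, 20 neighbours, Leiden resolution 1, no integration), without the members and their companion lists, and were named from marker lists; a cap on single cells' weight in that naming was added after clusters had been seen. UMIs were summed per library and class with at least 20 cells. Count models were planned and were not run. Because the deposited values are logs, limma 3.58.1 on log2(CPM + 5) of the recovered UMIs was chosen instead. It was used with trimmed-mean scaling, precision weights, trend, and a minimum of 10 UMIs, at the median total, in 2 libraries. CPM in the text are unscaled; differences come from the scaled values. Such differences understate changes of genes near 5 CPM. The procedure was tested on simulated data. The 8 members and all lists were chosen with earlier results of these data known. Named companion genes are those past the threshold or, where none was, up to 3 in each list and comparison with the widest difference among genes without overlap. Up to 5 genes most like each member were computed. Alternatives covered pseudocount, scaling, filter, weights, thinning, cell filter, resolution and leaving out each library. Members on chromosome 18 are given without sequence. Counts of companion genes leave out genes listed at 0 in a whole KPPC library, a choice made after seeing the data; their differences are from the fit over all genes. Some items are not reported here.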

Additional observations from a re-analysis of the deposited data

Results flagged for a closer look

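Of 71 companion genes, 29 were in the KPPCN table alone, so that KPPC gives no value to set beside them, and 20 of those reported here exceeded the 3 UMIs that a count of 0 allows in at least 1 KPPCN library. They were singled out because they carry signal in data that the genotype comparison does not use. Pax6, an endocrine and eye factor, had 2121 UMIs in KPPCN 2, of which 1094 were in Cdkn2a-high cells (45.3 CPM), against 19 UMIs in the whole of KPPCN 1. Sox2, a foregut and stem-cell factor, had 437 UMIs in KPPCN 2 and 75 in KPPCN 1, of which 171 and 72 were in Cdkn2a-high cells and none in epithelial-like cells. Nkx6-1, a beta-cell and progenitor factor, had 274 UMIs in KPPCN 2 and 78 in KPPCN 1, of which 188 and 43 were in Cdkn2a-high cells, and a further 28 of the KPPCN 1 UMIs were in the Gpr137b-led cluster. Mafa had 79 UMIs in KPPCN 2, Rbpjl 56, Sox8 33, Foxj1 24, Neurod1 14, Grhl1 14, Onecut1 13, Sox21 12 and Slc2a2 11. Ptf1a had 6 UMIs in KPPCN 2, Sox18 6, Nkx2-2 5 and Rfx6 4. Ins1, an insulin gene of the islet, had 10313 UMIs in KPPCN 2 and 13 in KPPCN 1. Of those in KPPCN 2, 114 were in Cdkn2a-high and 6 in epithelial-like cells. The part of islet RNA in the counts of the endocrine factors was not tested. In KPPCN 1 Cdx2 had 49 UMIs, Bhlha15 20, Insm1 15 and Gata1 8. Groups of 2 and 3 libraries are too small to test a single library as an outlier. Sox11 was singled out because its difference between the Gpr137b-led cluster and epithelial-like cells ran in opposite directions in the genotypes, at 0.62 in KPPCN 1 (30 and 24 UMIs), against −2.06, −2.19 and −1.30 in KPPC C3, D3 and H2 on the log2(CPM + 5) scale. KPPCN 2 had too few cells of that cluster to be included, and the difference between genotypes was not tested.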

How the results depend on the processing

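No paired analysis was possible because the KPPC columns carry no replicate numbers, so the replicate block could not be fitted. The number of members past an adjusted p of 0.05 was 0 in the 4 comparisons and stayed 0 under all alternatives except over all cells, where it was 1 with every cell thinned to 2000 UMIs (Onecut2, −2.28, adjusted p = 0.049, where 0.564% of all genes were called) and 0 to 3 when leaving out each library in turn, with 3 reached without KPPCN 1. Over all genes, 3252 were called over all cells without KPPCN 1 and 541 in Cdkn2a-high cells, 40 over all cells without KPPCN 2, 40 in fibroblast-like cells without C3, and with thinning 69 over all cells, 5 in epithelial-like and 8 in fibroblast-like cells, against 1 over all cells and 0 in the other populations as reported. A pseudocount of 1 CPM and unscaled totals each gave 3 calls over all cells. Thinning moved the median of all genes in epithelial-like cells to −0.32. Leaving out genes listed at 0 in a whole KPPC library, chosen after seeing the data, gave 18 calls over all cells and 4 in fibroblast-like cells, with no member among them.

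Of 419 alternative values for members, 373 kept their direction and side of the threshold, 42 changed direction and 4 crossed the threshold; for the named companion genes 590, 3 and 24 did. Leaving out each library in turn, the log2 difference in epithelial-like cells ran from −0.37 to 0.29 for Pdx1, −1.50 to 0.45 for Sox9, −0.15 to 0.088 for Onecut2, −0.31 to 0.45 for Foxa2, −0.80 to 0.67 for Sox4 and −2.94 to 0.36 for Sox11. In Cdkn2a-high cells it ran from −0.63 to 0.26 for Sox9, −2.64 to 0.44 for Onecut2, −0.0018 to 0.70 for Gata6, −0.39 to 0.39 for Foxa1, −0.33 to 0.10 for Foxa2 and −0.22 to 1.75 for Sox11. In fibroblast-like cells it ran from −1.16 to 0.90 for Sox9, −0.40 to 0.21 for Gata6 and −0.41 to 0.76 for Sox11. Over all cells it ran from −0.48 to 0.16 for Pdx1, −0.98 to 1.16 for Sox9, −0.65 to 0.10 for Foxa2, −0.57 to 0.65 for Sox4 and −2.43 to 0.57 for Sox11.

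Other settings changed the direction of these values. In epithelial-like cells Pdx1 was 0.28 at resolution 2, 0.022 with unscaled totals and 0.00085 in the Tff2-led cluster alone. Onecut2 was 0.0018 at resolution 2 and 0.022 with unscaled totals, and Foxa2 −0.021 at resolution 0.5, −0.16 with thinning and −0.015 with the Gpr137b-led cluster. Sox7 was −0.25 there at resolution 2. In Cdkn2a-high cells Foxa1 was 0.33 with a pseudocount of 1 CPM and 3.3e-05 with the low-depth cluster, and at resolution 2 Foxa2 was 0.16 and Sox11 −1.13. In fibroblast-like cells Sox11 was −0.10 with thinning, and Sox6 0.19 and 0.10 at resolutions 0.5 and 2. Over all cells Sox9 was −0.025 with thinning. The cause of these changes was not tested. Depth limits Foxa1 and Pdx1, with 1 and 16 UMIs in the epithelial-like cells of KPPCN 1.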
